A study of Mus musculus with 141 samples.

Results

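The vacuolar H+-ATPase (V-ATPase) subunit isoforms are 10 genes of the 24423 measured, taken by name as the common and the tissue-restricted isoform of 5 subunits. The V0 a pair was *Atp6v0a1* and *Atp6v0a4*, the V0 d pair *Atp6v0d1* and *Atp6v0d2*, the V1 B pair *Atp6v1b2* and *Atp6v1b1*, the V1 C pair *Atp6v1c1* and *Atp6v1c2*, and the V1 G pair *Atp6v1g1* and *Atp6v1g3*, with the common isoform named first. RNA-seq libraries of whole kidney, liver and lung came from 1 adult male mouse of each of 47 Collaborative Cross (CC) strains, recombinant inbred lines bred from a shared set of founders, which gave 47 libraries per tissue. All mice were 8 to 12 weeks old and had been kept in clear air chambers for 6 hours per day on weekdays over 2 weeks, and no group had another treatment. With 1 mouse per strain, differences between strains and between mice cannot be told apart, and the spread over 47 libraries holds both. Each mouse gave all 3 organs.

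V-ATPases are proton pumps of many cell membranes. The cytosolic V1 sector splits ATP, and the V0 sector in the membrane carries protons across it. In most cells the pump acidifies lysosomes, endosomes and other compartments. In the acid-secreting intercalated cells of the renal collecting duct, as in the clear cells of the epididymis and in osteoclasts, pumps reach the plasma membrane and move protons out of the cell. Several subunits are made from more than 1 gene, with a broadly used isoform and others found in such specialised cells. Loss of *ATP6V1B1* or *ATP6V0A4* in people causes distal renal tubular acidosis, often with hearing loss. The B subunits help form the ATP-splitting head of V1, the C and G subunits belong to the stalks that hold the head to the membrane, subunit a holds the path of the protons, and subunit d links the V0 ring to the stalk.

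The genes lie apart in the genome (NCBIM37, the build of the files, with GENCODE vM1 gene limits). *Atp6v0a1* is at chr11:100870766-100925033, *Atp6v0a4* at chr6:37998483-38074586, *Atp6v0d1* at chr8:108048365-108089947 and *Atp6v0d2* at chr4:19803988-19849752. *Atp6v1b1* is at chr6:83693011-83708803, *Atp6v1b2* at chr8:71612545-71637610, *Atp6v1c1* at chr15:38591659-38622198 and *Atp6v1c2* at chr12:17291527-17336165. *Atp6v1g1* is at chr4:63205806-63211784 and *Atp6v1g3* at chr1:140170315-140186037. *Atp6v0a4* and *Atp6v1b1* share a chromosome, as do the V0 d and V1 G genes *Atp6v0d2* and *Atp6v1g1*, and the V0 d and V1 B genes *Atp6v0d1* and *Atp6v1b2*.

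Promoter sequence of RefSeq (GRCm38.p6) was at hand for 6 of the 10 genes, *Atp6v0a1*, *Atp6v0a4*, *Atp6v0d1*, *Atp6v1b1*, *Atp6v1c2* and *Atp6v1g3*. The 250 bases before the start site were searched on both strands for TGTTTAC, a core that forkhead factors can bind, because the forkhead factor *Foxi1* is known as a regulator of intercalated cells, and for CACGTG, the core of the element that lysosomal genes often carry. The motifs have different letters and were counted separately. TGTTTAC was in 1 of the 6, *Atp6v1b1*, with its first base at -98 from the start, and in 3.17% of all 32851 promoters. CACGTG was in 0 of the 6 and in 6.02% of all promoters. The promoters of the 3 isoforms that were highest in kidney are shown 5′ to 3′, with TGTTTAC in capitals.
*Atp6v1b1* promoter, chr6:83742767-83743016, plus strand: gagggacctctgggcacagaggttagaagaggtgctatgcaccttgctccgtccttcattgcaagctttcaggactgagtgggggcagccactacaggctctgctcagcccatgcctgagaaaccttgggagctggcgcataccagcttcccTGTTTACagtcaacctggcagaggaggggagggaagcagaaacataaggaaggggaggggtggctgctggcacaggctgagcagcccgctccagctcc
*Atp6v0a4* promoter, chr6:38124587-38124836, minus strand: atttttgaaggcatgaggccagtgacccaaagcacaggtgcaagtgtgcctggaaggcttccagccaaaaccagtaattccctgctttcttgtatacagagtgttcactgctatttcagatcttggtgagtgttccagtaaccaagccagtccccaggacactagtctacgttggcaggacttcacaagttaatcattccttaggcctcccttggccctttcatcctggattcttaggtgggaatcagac
*Atp6v1g3* promoter, chr1:138273488-138273737, plus strand: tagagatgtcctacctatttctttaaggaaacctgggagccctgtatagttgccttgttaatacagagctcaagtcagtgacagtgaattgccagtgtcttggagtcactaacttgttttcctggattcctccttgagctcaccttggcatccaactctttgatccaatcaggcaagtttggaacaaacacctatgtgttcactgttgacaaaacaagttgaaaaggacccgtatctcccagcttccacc
A match of this length is a description of the letters and not of a bound site, and no match says only that the letters are not in this window. G and C made up 59.6% of the *Atp6v1b1* window, 48.4% of that of *Atp6v0a4* and 44.4% of that of *Atp6v1g3*, beside a median of 52.4% over all promoters.

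Levels are given on 2 scales. CPM, a gene's counts relative to the total of its library after TMM scaling (a factor per library that evens out the bulk of genes), was used between tissues. TPM, which also divides by transcript length, was used between genes. Library totals ran from 3046695 to 15028553 counts in kidney, from 1738046 to 42158454 in liver and from 2829104 to 17585682 in lung. In the median liver, 3 counts came to 0.562 CPM, in the median kidney to 0.337 and in the median lung to 0.223. Values at or under 3 counts are called unresolved, which covers counting error only. Defining markers were high in the labelled tissue. *Alb* was at a median of 75954 CPM in liver and under 40 CPM in the other tissues, *Sftpc* at 3128 CPM in lung and under 10 elsewhere, and *Umod* was over 3 counts in all 47 kidneys and unresolved in 46 livers and 46 lungs. By correlation with the median profile of its tissue, the library farthest apart was CC020 in kidney (r = 0.934, beside a median of 0.976), CC033 in liver (0.898, beside 0.971) and CC015 in lung (0.919, beside 0.976).

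*Atp6v0a4*, whose product is a V0 a subunit known from intercalated-cell pumps, though not only from these, was the most abundant restricted isoform in kidney. The 47 kidneys held 138 to 313 CPM with a median of 222, or 207 TPM at the median. Livers held 0 to 11.9 CPM with a median of 0.764, and 19 of 47 livers were unresolved. Lungs held 1.66 to 8.15 CPM with a median of 3.86, all over 3 counts. Every kidney was above every liver and every lung, while livers and lungs overlapped. The log2 fold change was 7.92 (SE 0.12, q = 3.4e-81) for kidney against liver, 5.79 (SE 0.10, q = 7.9e-77) for kidney against lung and 2.12 (SE 0.11, q = 3.3e-33) for lung against liver, and the last was higher in lung in 44 of 47 mice. Here and below, q comes from limma-voom with strain as a block, adjusted over 12127 genes.

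*Atp6v1b1*, the B subunit of the same pumps, was at 16.2 to 56.6 CPM in kidney with a median of 36.4. In lung it was at 0.682 to 8.52 CPM with a median of 2.53, and no lung was unresolved. In liver it was unresolved in 46 of 47 libraries and at 0 counts in 34. Kidneys stood above all lungs without overlap, and lungs above livers in 47 of 47 mice. The median kidney was at least 64.8-fold above 3 counts in the median liver, and the median lung at least 4.51-fold above it. The fitted log2 fold change of kidney against lung was 3.82 (SE 0.11, q = 4.2e-56). Against liver the fit gave 8.06 (SE 0.14, q = 7.6e-76) for kidney and 4.24 (SE 0.13, q = 2.4e-52) for lung, both of which depend on how values near 0 are treated.

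*Atp6v1g3*, a V1 G subunit found mainly in kidney, was resolved in every kidney and in few other libraries. Kidneys held 11.2 to 41.4 CPM with a median of 22.0. The gene was unresolved in 45 of 47 livers and in 32 of 47 lungs, where the highest values were 0.945 and 0.856 CPM. Kidneys overlapped with neither of the other tissues. The median kidney was at least 39.2-fold above 3 counts in the median liver and at least 98.8-fold above 3 counts in the median lung. The fit gave log2 fold changes of 7.38 (SE 0.13, q = 4.2e-76) and 6.85 (SE 0.12, q = 2.2e-75) for these comparisons. Lung against liver was 0.53 (SE 0.12, q = 2.8e-05), under the 2-fold threshold and between unresolved medians.

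*Atp6v0d2*, a V0 d subunit known from osteoclasts, macrophages and kidney, had another pattern, with lung at the level of kidney. Kidneys held 13.6 to 39.7 CPM with a median of 20.3, and lungs 13.1 to 43.9 CPM with a median of 24.7. The log2 fold change of kidney against lung was -0.21 (SE 0.11, q = 0.0594), with lung higher in 31 of 47 mice, and did not reach 2-fold. Livers ranged from 0.144 to 18.9 CPM with a median of 2.69, and 7 were unresolved. The liver distribution overlapped with both other tissues. Kidney and lung exceeded liver by log2 fold changes of 2.55 (SE 0.12, q = 2.1e-38, higher in 46 of 47 mice) and 2.77 (SE 0.12, q = 1.7e-41, higher in 47 of 47 mice).

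*Atp6v1c2* and *Atp6v0a1* were near the limit of detection. The files list 2 transcripts for *Atp6v1c2* and 4 for *Atp6v0a1*, and 1 for each of the other 8 isoforms. Only uniquely aligned reads were counted, and across all genes a gene with more than 1 transcript had a median of 0.323 mean CPM (6112 genes), beside 2.42 for a gene with 1 (18311 genes). The part of this in the level of either isoform was not tested, so neither was compared with its partner by level. *Atp6v1c2* was at a median of 0.965 CPM in lung (0 to 2.33, with 3 libraries unresolved) and of 0.619 CPM in kidney (0 to 1.97, with 12 unresolved), and was unresolved in all 47 livers. Its log2 fold change of kidney against lung was -0.58 (SE 0.17, q = 0.00137), with lung higher in 35 of 47 mice and less than 2-fold, and the median lung was at least 1.72-fold above 3 counts in the median liver. *Atp6v0a1*, the common V0 a subunit, had medians of 0.525 CPM in kidney, 0.622 in liver and 0.429 in lung, with overlapping ranges and 15 to 25 unresolved libraries per tissue, and it was the 1 isoform that did not pass the filter on low counts.

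**Figure D1:**
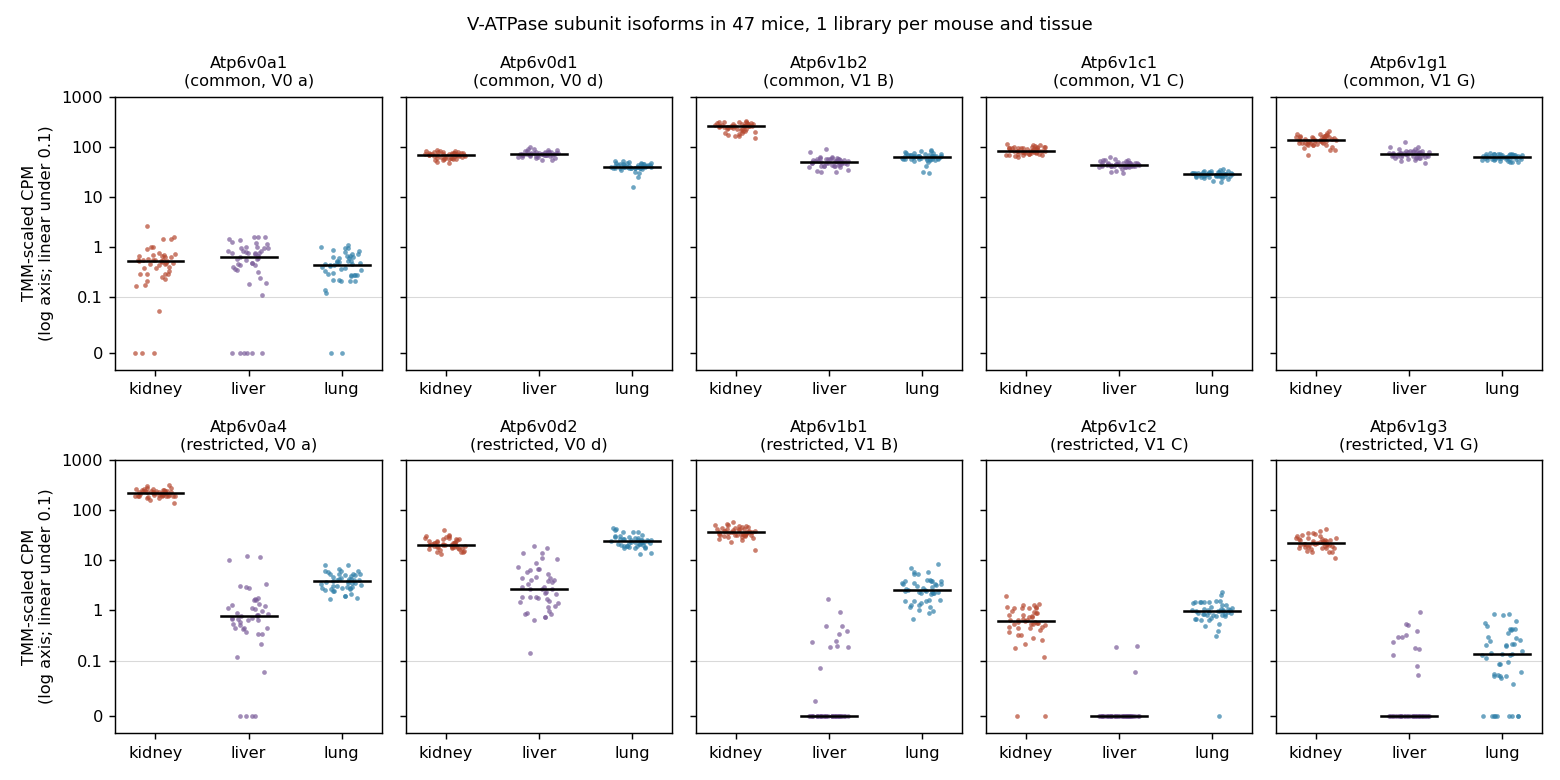
TMM-scaled CPM (log axis, linear under 0.1) of the 10 isoforms, the common one of each pair above and the restricted one below, with 1 point per library and a bar at the median of 47. *Atp6v0a4*, *Atp6v1b1* and *Atp6v1g3* lie higher in every kidney than in any other library, *Atp6v0d2* lies as high in lung (median 24.7 CPM) as in kidney (20.3), and the common isoforms other than *Atp6v0a1* are over 10 CPM everywhere.

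The 4 common isoforms that could be tested were present in every library. *Atp6v1b2*, the B subunit of pumps throughout the body, stood out among them in kidney. Kidneys held 153 to 331 CPM with a median of 256, livers 31.1 to 90.3 with a median of 48.9 and lungs 29.9 to 84.4 with a median of 63.9. Kidneys overlapped with neither tissue, and the log2 fold changes were 2.31 (SE 0.05, q = 1.1e-64) against liver and 1.98 (SE 0.05, q = 6.3e-59) against lung. The highest liver was that of CC016, which also had the highest summed level of Kupffer cell markers (854 CPM, beside a median of 263), and the part of that in the value was not tested.

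*Atp6v1c1*, the common C subunit, was at 62.5 to 114 CPM in kidney, 29.5 to 61.3 in liver and 19.7 to 35.2 in lung. Kidney was higher in 47 of 47 mice in both comparisons, by log2 fold changes of 1.60 (SE 0.04, q = 1.1e-64) against lung and 0.94 (SE 0.04, q = 1.3e-44) against liver. The second was just under 2-fold, and it became 1.05 with DESeq2 size factors and 1.88 with library totals. *Atp6v1g1*, the common G subunit, was at medians of 134 CPM in kidney, 72.7 in liver and 62.4 in lung, with overlapping ranges. Its log2 fold change of kidney against lung was 1.10 (SE 0.04, q = 1.1e-45, higher in 47 of 47 mice), and it was 0.97 with DESeq2 size factors and 0.67 with library totals, under 2-fold. Of the 50-base windows of its transcript, 56.9% occur at more than 1 place in the genome, and reads from these were not counted, so its level is a lower limit.

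*Atp6v0d1*, the common d subunit and part of every V0 sector without *Atp6v0d2*, differed least between kidney and liver. Kidneys held 47.8 to 84.6 CPM, livers 54.0 to 101 and lungs 15.5 to 52.3, with medians of 69.1, 72.1 and 39.1. The log2 fold change of kidney against liver was -0.09 (SE 0.03, q = 0.0135), and it turned to 0.01 with DESeq2 size factors and 0.85 with library totals. The order of lung and liver depended on scaling for 3 common isoforms. Lung against liver was -0.85 for *Atp6v0d1*, -0.65 for *Atp6v1c1* and -0.21 for *Atp6v1g1* with TMM, and 0.50, 0.71 and 1.16 with library totals.

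Of the 9 isoforms tested, 6 were higher in kidney than in liver at q ≤ 0.1 and 2-fold and 0 were lower, beside 20.8% and 15.6% of all genes tested. The 6 were all 5 restricted isoforms and *Atp6v1b2*. For *Atp6v1c2*, unresolved in all 47 livers, the median kidney was only at least 1.1-fold above 3 counts in the median liver. With only these 2 tissues in the fit, 5 isoforms were higher in kidney. Against lung, 6 of 9 were higher in kidney and 0 lower, beside 20.6% and 25.5% of all genes, and these were *Atp6v0a4*, *Atp6v1b1*, *Atp6v1g3*, *Atp6v1b2*, *Atp6v1c1* and *Atp6v1g1*. In lung against liver, 4 of 9 were higher and 0 lower, beside 31.0% and 23.9%, and all 4 were restricted isoforms (*Atp6v0a4*, *Atp6v0d2*, *Atp6v1b1* and *Atp6v1c2*). *Atp6v1g3* passed the filter almost only through kidneys, with over 1 CPM of total counts in 47 kidneys, 3 lungs and 0 livers, and so had to differ. *Atp6v1c2* passed with 44 libraries, 33 lungs, 11 kidneys and 0 livers, and *Atp6v1b1* with 47 kidneys, 43 lungs and 0 livers. The filter itself thus favoured the calls of these isoforms against liver. The median log2 fold change of all genes tested was within 0.06 of 0 with TMM, and it was 0.954, -0.464 and 1.44 with library totals for kidney against liver, kidney against lung and lung against liver. Counts of higher and lower genes shifted with it, from 2521 and 1891 to 5795 and 981 in the first comparison, from 2502 and 3089 to 1831 and 4046 in the second, and from 3763 and 2901 to 7474 and 1186 in the third. The fits without the 5 strains CC015, CC020, CC033, CC035 and CC036 gave 6, 6 and 4 higher isoforms and 0 lower.

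**Figure D2:**
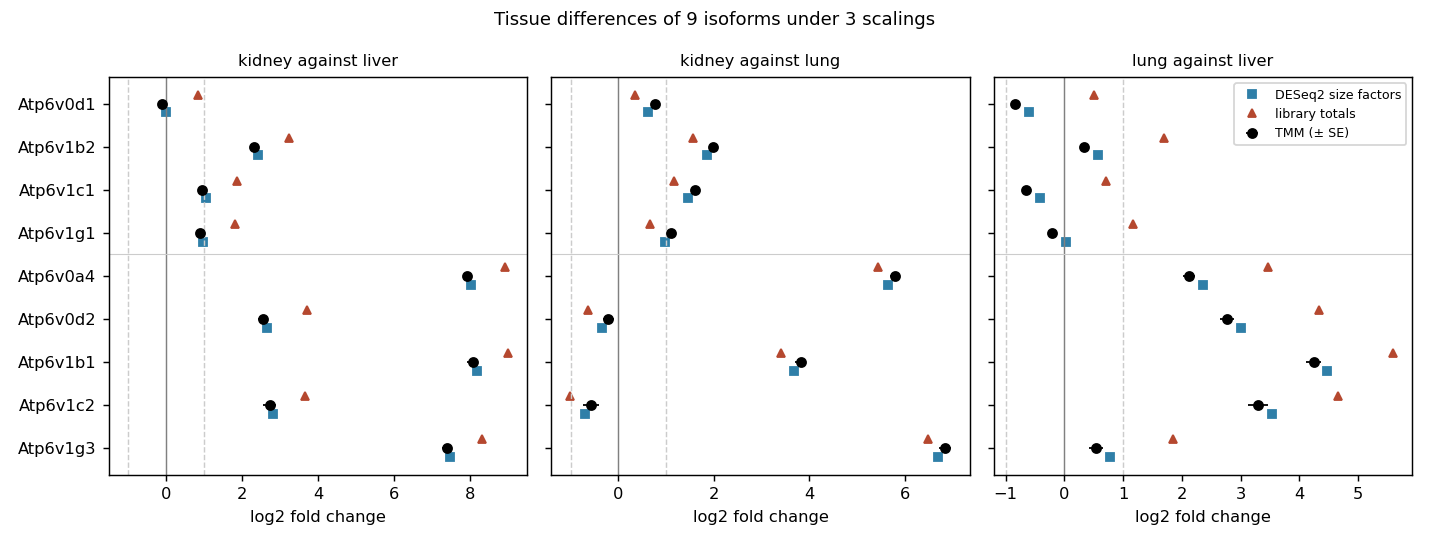
Log2 fold change of 9 isoforms in the 3 tissue comparisons under 3 scalings, with the standard error of the TMM fit as a bar and dashed lines at 2-fold. *Atp6v0a4*, *Atp6v1b1* and *Atp6v1g3* stay over 3 in both kidney comparisons under each scaling, while in lung against liver 3 common isoforms move across 0, as *Atp6v0d1* does from -0.85 to 0.50, and *Atp6v1b2* stays above it (0.33 to 1.69).

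The share of a pair held by the restricted isoform does not depend on the scaling of libraries, since both genes are read in the same library. It was computed from TPM and given no test. *Atp6v1b1* made up 11.2% to 29.7% of the B pair in kidney with a median of 17.0%, 1.51% to 17.2% in lung with a median of 5.43%. In liver the median share was 0%. Kidney had the higher share than lung in 45 of 47 mice. *Atp6v0d2* made up 15.8% of the d pair in the median kidney (10.7% to 30.7%), 28.2% in the median lung (16.1% to 60.1%) and 2.41% in the median liver (0.0927% to 14.3%). Its share was higher in lung than in kidney in 45 of 47 mice, although its CPM differed by less than 2-fold. The highest lung share was that of CC015, the lung with the lowest *Atp6v0d1* (15.5 CPM). *Atp6v1g3* made up 8.22% of the G pair in the median kidney (5.19% to 18.2%), 0.115% in lung and 0% in liver, with the lower limit on *Atp6v1g1* applying to all 3. Kidney came first for B and G and lung first for d. By counts in place of TPM, which leaves out length, the median kidney was at 12.5% for B and 22.9% for d, and the median lung at 3.85% and 38.1%, in the same order.

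**Figure D3:**
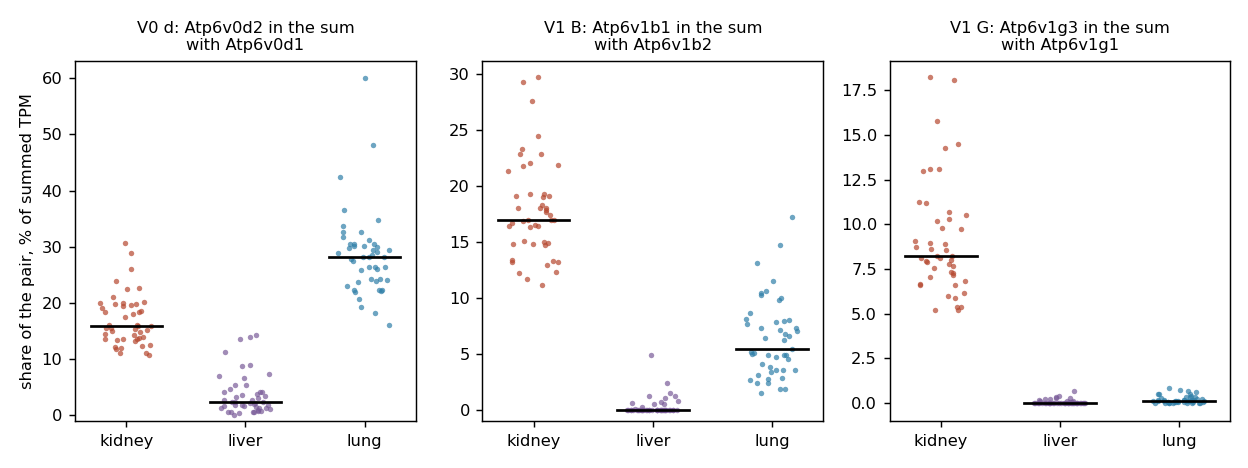
Share of the restricted isoform in the summed TPM of its pair (%), for the 3 pairs whose genes have 1 transcript each, with 1 point per library and a bar at the median. Kidney is highest for V1 B (17.0%) and V1 G (8.22%), and lung is highest for V0 d (28.2%).

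Of 15 other subunit and accessory genes of the V-ATPase, 13 were tested. In kidney 4 were higher than in liver, beside 20.8% of all genes, and 8 higher than in lung, beside 20.6%, with 0 and 1 lower. Their median log2 fold changes were 0.84 and 1.09, beside 0.00 and -0.04 for all genes tested. *Atp6v1a*, the ATP-splitting A subunit, had a median of 601 CPM in kidney, 83.4 in liver and 95.4 in lung, with log2 fold changes for kidney of 2.78 (SE 0.04, q = 1.9e-81) and 2.66 (SE 0.04, q = 9.7e-80). *Atp6v0e2*, an isoform of the small V0 e subunit, was at 28.3 CPM in kidney, 11.9 in lung and 2.51 in liver, and was higher in kidney than in liver by 3.26 (SE 0.09, q = 1.7e-57) and in lung than in liver by 2.01 (SE 0.09, q = 6.3e-40). *Atp6v1d*, a rotor subunit, was higher in kidney than in liver by 1.28 (SE 0.03, q = 8.9e-59).

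Against lung, *Atp6v1e1* and *Atp6v1f*, further V1 subunits, were higher in kidney by 1.89 (SE 0.04, q = 5.4e-71) and 1.72 (SE 0.05, q = 8.1e-56), with 28.9% of the windows of *Atp6v1f* at more than 1 place. The 1 gene lower in kidney was *Tcirg1*, the V0 a subunit of osteoclasts, at -1.44 (SE 0.15, q = 6.2e-16), a gene with 3 transcripts and medians of 0.462 CPM in kidney and 1.26 in lung. In lung against liver, 1 of the 13 was higher (*Atp6v0e2*) and 2 lower, beside 31.0% and 23.9% of all genes. The 2 were *Atp6v1h* at -1.02 and *Atp6v1e1* at -1.01, which turned to 0.38 and 0.36 with library totals. With library totals, 12 of 13 were higher in kidney than in liver, beside 5795 of all 12127 genes. Against lung 5 were higher and 1 lower in kidney, beside 1831 and 4046 of all genes. In lung against liver 8 were higher, beside 7474 of all genes. *Atp6v0c*, the proton-carrying ring subunit, was not tested, and 78.0% of its windows occur at more than 1 place. Of 6 tested genes for V-ATPase assembly and regulation, 2 were higher in kidney than in liver and 3 than in lung, with 0 lower. The shares of all genes were the same 20.8% and 20.6%. None passed in lung against liver, beside 31.0% higher and 23.9% lower of all genes. With library totals 3 of the 6 were higher there, beside 7474 of all 12127 genes. *Rogdi* and *Dmxl1*, proteins tied to reassembly of the pump, were higher in kidney than in liver by 1.61 (SE 0.09, q = 2.1e-30) and 1.27 (SE 0.04, q = 3.3e-53). The medians over the 6 genes were 0.26, 0.96 and -0.52.

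Markers of intercalated cells were higher in kidney, as were most of those of other tubule cells. Of 15 intercalated-cell genes, 12 were tested, and 11 were higher in kidney than in liver and 12 than in lung, beside 20.8% and 20.6% of all genes, with median log2 fold changes of 5.40 and 5.75. All 8 tested proximal tubule markers were higher in both comparisons (medians 8.51 and 8.82), as were all 5 of the loop and distal tubule (6.05 and 7.22). Of 4 tested principal-cell markers, 4 were higher in kidney than in liver. Against lung 3 were higher and 1 lower, beside 20.6% and 25.5% of all genes. *Scnn1g*, one of the 4, was at medians of 84 CPM in lung and 23.4 CPM in kidney. In lung against liver 4 of the 12 intercalated-cell genes were higher and 2 lower, beside 31.0% and 23.9% of all genes. Their median was -0.65, where *Atp6v1b1* was at 4.24. *Foxi1* was at a median of 11.9 CPM in kidney and unresolved in 46 livers and 47 lungs, and *Rhcg*, an ammonia channel, at 42.4 CPM in kidney and unresolved in 45 livers and 44 lungs. *Atp6v1b1* was resolved in every lung while both were not. In whole tissue, fewer cells of a type and less RNA per cell cannot be told apart.

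Across the 47 kidneys, the spread of 4 restricted isoforms was below that of the median gene, and that of *Atp6v1c2*, which had few counts, was above it. The standard deviation of log2 CPM was 0.24 for *Atp6v0a4*, 0.33 for *Atp6v0d2*, 0.33 for *Atp6v1b1*, 0.39 for *Atp6v1g3* and 0.91 for *Atp6v1c2*, beside a median of 0.41 over all genes tested. The kidney of CC020 was the lowest of 47 for *Atp6v0a4* (138 CPM), *Atp6v1b1* (16.2), *Atp6v1g3* (11.2) and *Atp6v1b2* (153). It was also the lowest for *Rhcg* (11.2 CPM, beside a median of 42.4) and for summed proximal tubule markers (6882 CPM, beside 14127), and the highest for summed alveolar macrophage markers (101 CPM, beside 13.7). *Atp6v0d1* in that kidney was at 68.1 CPM, near the median. The highest *Atp6v0d2*, 39.7 CPM in CC033, was at 28.6 TPM, near the median of 26.6 TPM.

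All 10 pairs among the 5 restricted isoforms had a positive Pearson r across kidneys, from 0.20 to 0.731 with a median of 0.351, which was 0.219 without CC020. The pair that stood out was *Atp6v0d2* and *Atp6v1g3*, with r = 0.731 and Spearman's rho = 0.737 (n = 47, permutation p = 1e-05 each, the smallest that 100000 permutations can give, q = 1.8e-05 over all genes). Without the 2 strains farthest from the median of *Atp6v0d2* or *Atp6v1g3* it was 0.722 or 0.691, and without CC020 it was 0.721. The next pair, *Atp6v1b1* and *Atp6v1g3*, had r = 0.475 and rho = 0.423 (permutation p = 0.0006 and 0.00321, q = 0.0911), which fell to 0.353 without CC020, where q was 0.453. *Atp6v0d2* and *Atp6v1b1* had r = 0.449 and rho = 0.412 (permutation p = 0.00165 and 0.00396, q = 0.135), and 0.408 without CC020. *Atp6v0a4* was weakly tied to the others, with r of 0.20 to 0.388, which became 0.00665 to 0.221 without CC020. Among 45 pairs computed per tissue, 2 of these 10 were at q ≤ 0.1, and 1 of 10 without CC020. Of all genes, at most 0.470% rose with any of the 5 isoforms at that q, and at most 23 of 12126 without CC020.

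Across kidneys no pair of isoforms of the same subunit passed. There r was 0.105 for V0 a, -0.320 for V0 d (rho -0.291, permutation p = 0.0288 and 0.048, q = 0.155), 0.0847 for V1 B, 0.00851 for V1 C and -0.0161 for V1 G. Across livers the V0 d pair had r = -0.437, which passed at q ≤ 0.1 in the limma fit on *Atp6v0d1* and not in that on *Atp6v0d2*. The 10 pairs of common isoforms had r from -0.243 to 0.689 across kidneys with a median of 0.15, and 6 were positive. The highest was *Atp6v0d1* and *Atp6v1b2* at r = 0.689 and rho = 0.676 (permutation p = 1e-05 each, q = 0.00015), and 0.606 without 2 strains. In lung the 10 restricted pairs had r from -0.202 to 0.212 with a median of -0.0599, and *Atp6v0d2* and *Atp6v1g3*, the second mostly unresolved there, had r = -0.0561. That the kidney and lung values differ was not tested.

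**Figure D4:**
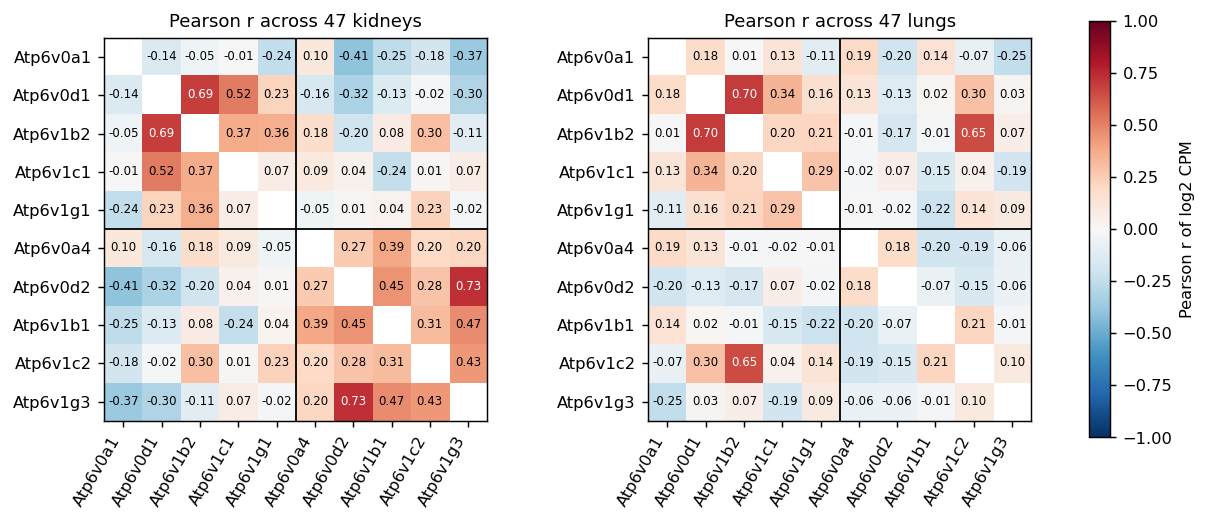
Pearson r of log2 CPM between the 10 isoforms across 47 kidneys and 47 lungs, with common isoforms first and black lines between the classes. In kidney the lower right block of restricted isoforms is positive throughout (0.20 to 0.731), and in lung the same block runs from -0.202 to 0.212.

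Across kidneys the r of *Atp6v1b1*, *Atp6v1g3* and *Atp6v0d2* with the log2 sum of the 15 listed intercalated-cell markers was 0.428, 0.465 and 0.452. That of *Atp6v0a4* was -0.0441, and no test was run on the sum. *Car2*, at a median of 301 CPM beside 518 CPM for the sum, weighed most in it. The r of *Car2* alone was 0.0926, 0.2 and 0.203 with the first 3, and -0.206 with *Atp6v0a4*. For *Atp6v1b1*, of the 12 tested markers, 5 rose with it at q ≤ 0.1 and 0 fell, beside 0.445% of all genes that rose with it. At an unadjusted p under 0.05, 8 were positive, and the median r was 0.436, or 0.307 without CC020. Over all genes that p was counted only without CC020, where 379 of 12126 were positive. *Insrr*, a receptor that senses alkaline pH, had r = 0.733 and rho = 0.566 (permutation p = 1e-05 and 4e-05, q = 1.1e-05), and *Rhcg* r = 0.711 and rho = 0.566 (permutation p = 1e-05 and 6e-05, q = 3.8e-05). *Slc26a4*, the chloride-bicarbonate exchanger pendrin, was at r = 0.541 (q = 0.0262), *Foxi1* at 0.489 (q = 0.0691) and *Oxgr1* at 0.478 (q = 0.0869). Without CC020, *Insrr* was at r = 0.615 (q = 0.0214) and *Rhcg* at 0.574 (q = 0.0472), while *Slc26a4* was at 0.383 (q = 0.43), *Foxi1* at 0.483 (q = 0.196) and *Oxgr1* at 0.479 (q = 0.208), so 2 of 12 remained past the threshold. All genes rising with *Atp6v1b1* fell from 54 to 8.

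The 5 genes most like *Atp6v1b1* were *Tmem52b* (r = 0.746, rho = 0.667), *Insrr*, *Rhcg*, *Tmem213* (0.667, 0.604) and *Klhl3* (0.656, 0.598), with q from 6.9e-06 to 0.00088. *Klhl3* acts on the sodium-chloride cotransporter of the distal tubule. Without CC020 the r of *Tmem52b*, *Tmem213* and *Klhl3* was 0.642, 0.550 and 0.547. Of 4 tested principal-cell markers 1 passed with *Atp6v1b1*, *Scnn1g*, a subunit of the epithelial sodium channel, with r = 0.535 (q = 0.0414), and r = 0.586 (q = 0.036) without CC020. The others were *Aqp3* (0.437, q = 0.125), *Hsd11b2* (0.332, q = 0.326) and *Aqp2*, the water channel of these cells (0.109, q = 0.815).

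*Atp6v0d2* was tied to *Scnn1g* more than to any other gene across kidneys, with r = 0.741 and rho = 0.730 (permutation p = 1e-05 each, q = 1.8e-05), and r = 0.745 without CC020 (q = 3e-05). It was the 1 of 4 principal-cell markers to pass, with *Hsd11b2* at 0.398 (q = 0.196), *Aqp3* at 0.125 and *Aqp2* at 0.112. After *Atp6v1g3*, the genes most like it were *Rwdd4a* (r = 0.690), *Avpr1a*, a vasopressin receptor (0.664), and *AA986860* (0.633), with q of 0.0011 to 0.0036. Of the intercalated-cell markers, 0 of 12 passed at q ≤ 0.1 with *Atp6v0d2*, beside 0.305% of all genes. At an unadjusted p under 0.05, 10 of 12 were positive, and the median r was 0.373. Over all genes that p was counted only without CC020, where 703 of 12126 were positive. *Atp6v1g3* rose with 3 of the 12, *Slc26a4* (r = 0.546, q = 0.0324), *Slc26a7* (0.502, q = 0.07) and *Slc4a1* (0.487, q = 0.0848), beside 0.470% of all genes. Without CC020 it rose with 0 of 12, and all genes rising with it fell from 57 to 11. The r of these 3 markers was then 0.445, 0.358 and 0.363. The genes most like *Atp6v1g3* after *Atp6v0d2* were *Apela* (0.643), *Bsnd*, a chloride channel subunit (0.622), *Casr*, the calcium-sensing receptor (0.616), and *Ppat* (0.615), with q of 0.0034 to 0.0073.

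**Figure D5:**
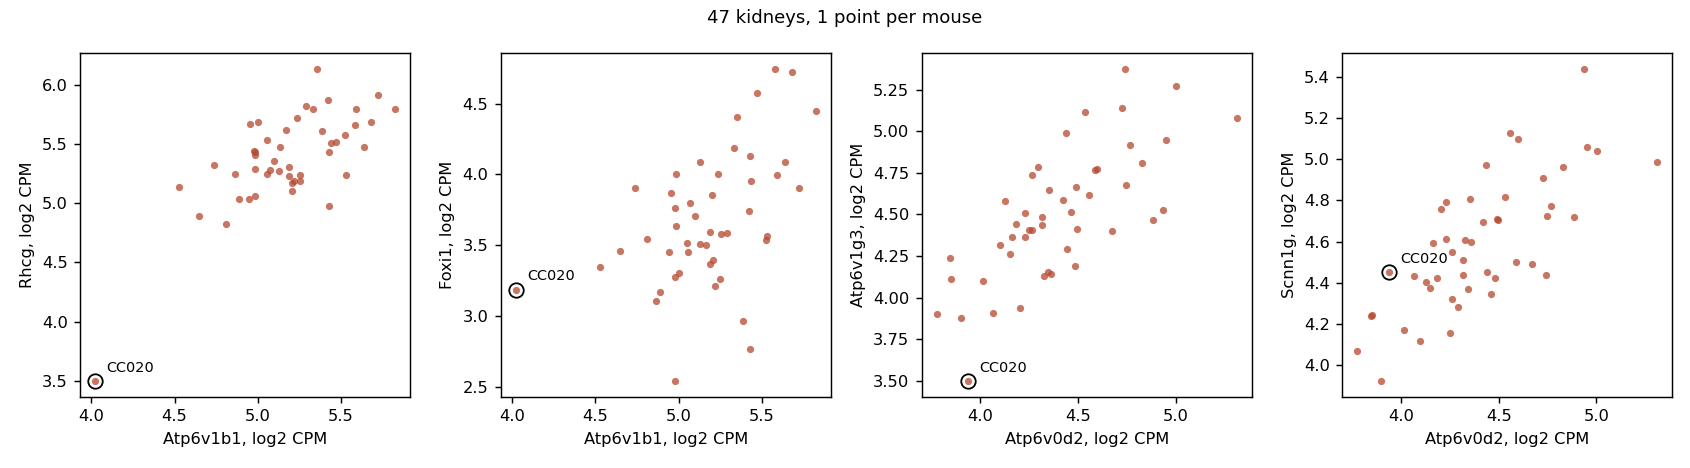
Log2 CPM of *Atp6v1b1* against *Rhcg* and *Foxi1*, and of *Atp6v0d2* against *Atp6v1g3* and *Scnn1g*, across 47 kidneys with 1 point per mouse and the kidney of CC020 circled. CC020 lies far below the rest for *Rhcg* and within the range of the rest for *Scnn1g*, where r is 0.745 without it.

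Among the restricted isoforms, *Atp6v0a4* had the lowest median r with intercalated-cell markers across kidneys. Of the intercalated-cell markers 0 of 12 rose with it at q ≤ 0.1 and 2 at an unadjusted p under 0.05, with a median r of 0.166. The 24 genes that rose with it at q ≤ 0.1 with limma (0.198% of those tested) became 0 without CC020, where 334 did at an unadjusted p under 0.05. Among those most like it were *Syn3*, with r = 0.554 and rho = 0.550 (permutation p = 6e-05 and 0.00012, q = 0.054), or 0.482 without CC020, *Catsper2* (0.531), *Creb3l2* (0.523) and *Fam133b* (0.522). For *Atp6v1c2*, the highest r across kidneys was 0.560 (*AI197445*, q = 0.12, permutation p = 4e-05), followed by *Mthfd1*, *Cdip1*, *Acadsb* and *Cdkl2*.

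Of the common isoforms, *Atp6v1b2* and *Atp6v0d1* varied with proximal tubule markers across kidneys. *Atp6v1b2* rose with 6 of 8 proximal tubule markers, beside 11.7% of all genes, and with 3 of 8 without CC020. *Atp6v0d1* rose with 5 of 8, beside 7.88%, and with 5 of 8 without CC020. Each rose with 4 of 12 tested lysosomal genes, or with 7 for *Atp6v0d1* and 5 for *Atp6v1b2* without CC020. *Atp6v1c1* passed with 0 of 8 proximal tubule and 1 of 12 lysosomal genes, and *Atp6v1g1* with 0 of both, with median r of 0.236 and 0.199 for the first and 0.201 and 0.262 for the second. *Atp6v1b2* also rose with 2 of 12 intercalated-cell markers, *Rhbg* (r = 0.469, q = 0.0129) and *Car12* (0.44, q = 0.0228), and fell with 2, *Aqp6* (-0.541, q = 0.00256) and *Dmrt2* (-0.422, q = 0.0385). Of all 12126 genes, 11.7% rose with *Atp6v1b2* and 705 fell. Without CC020 it rose with 1 of these 12 and fell with 3. *Atp6v0d1* rose with 9 of the 13 other V-ATPase genes and *Atp6v1b2* with 8, and with 10 and 9 without CC020, while *Atp6v1c1* rose with 5 and *Atp6v1g1* with 0. Of all 12126 genes, 485 rose with *Atp6v1c1* and 0 with *Atp6v1g1*, so the latter could pass with no list. Of the restricted isoforms, none rose with any of the 13 at q ≤ 0.1. At most 0.470% of all genes rose with any of these isoforms, so this count does not set the 13 apart from other genes. The median r with the 13 was -0.0886 for *Atp6v0a4*, -0.0428 for *Atp6v0d2*, 0.0183 for *Atp6v1b1*, 0.0474 for *Atp6v1g3* and 0.192 for *Atp6v1c2*. *Atp6v0d2* had 1 negative call among the 13, at r = -0.486. Among the genes most like *Atp6v1b2* were *Qdpr* (r = 0.778), *Wipi2*, an autophagy protein (0.746), *Psmb1* (0.745) and *Ndufa4* (0.744). *Qdpr* was also among the 5 most like *Atp6v0d1*, with *Lamtor4*, of the complex that binds the growth regulator mTORC to lysosomes (0.720), *Glmp*, a lysosomal membrane protein (0.712), and *Cryl1* (0.695). *Atp6v1c1* was most like *Lamp2*, a main lysosomal membrane protein (0.678, q = 0.0022), *Lamtor5*, of the same complex as *Lamtor4* (0.655), *Ankrd46*, *Stradb* and *Arpc5l*. For *Atp6v1g1*, *Yipf1* (0.562), *Mafk*, the V-ATPase accessory gene *Atp6ap1* (0.531), *Asb13* and *Pam16* came first, each with q = 0.3 and permutation p of 9e-05 to 0.00025. *Atp6v0a1* had its highest TPM in lung, where *Itga9* (r = 0.589, q = 0.094) came first and *Tma16*, *Ldhal6b*, *Ints3* and *Ak5* followed at q = 0.16.

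In lung, *Atp6v0d2* rose with 3 genes at q ≤ 0.1, 0.0247% of those tested. These were *Slc39a2*, a zinc transporter (r = 0.610, rho = 0.611, q = 0.054), *Plet1* (0.588, q = 0.071) and *Lilra5*, a leukocyte receptor (0.563, q = 0.089), and *Kcnn3* and *Lamp3* followed at q of 0.14 and 0.19. Of 8 tested alveolar macrophage markers 0 passed and 5 were positive at an unadjusted p under 0.05, a cutoff not counted over all genes in lung. The median r was 0.343, from *Ear2* at -0.0959 to *Cd68* at 0.476 (q = 0.236). *Atp6v1b1* across lungs was most like *Ppp1r32* (r = 0.569, rho = 0.642, q = 0.22), *9130023H24Rik*, *1700040L02Rik*, *Lypd2* and *Cd24a*. With it 0 of 8 airway and alveolar type 2 markers passed, as did 0 of all 12126 genes, and the median r with these markers was 0.211. Its r with the log2 sum of the listed markers of these cells was 0.403 (rho = 0.431), and 0.372 without 2 strains. *Atp6v0a4* was most like *Slc9a3*, a sodium-proton exchanger (0.496), *Cpt1a*, *Pcbp2*, *Tgfa* and *Vegfd*, each with q = 0.99. For *Atp6v1c2*, the leading lung values rested on few libraries. *Psmb4* was at r = 0.704 and rho = 0.318, and at 0.289 without 2 strains, and *Gm561*, *Smim7*, *Cyb561* and *Gnpat* fell from 0.693 to 0.710 to 0.314 to 0.582.

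In liver, the restricted isoforms were low. *Atp6v0a4* was at 11.9, 11.6 and 10.3 CPM (7, 49 and 14 counts) in CC033, CC035 and CC036, and at most 3.31 CPM in the other 44 livers. The same 3 livers had the highest summed level of proximal tubule markers, 653, 603 and 253 CPM beside a median of 49.0, with *Kap*, a gene highly expressed in kidney, at 480, 581 and 265 CPM beside a median of 19.9. *Atp6v0a4* rose with 5 of 8 proximal tubule markers across livers, beside 0.586% of all genes. Its r with their log2 sum was 0.499 over 47 livers and 0.063 over the 44. The single liver with *Atp6v1b1* over 3 counts (4 counts, CC035) was among the 3.

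*Atp6v0d2* was spread over livers in another way, with a standard deviation of log2 CPM of 1.36, beside a median of 0.52 over all genes. CC013 (18.9 CPM, 85 counts), CC024 (17.9 CPM, 200 counts), CC004, CC012 and CC032 were the highest, none of them among the 3 livers with kidney genes. Their summed proximal tubule markers were 35.4 to 77.0 CPM, and their summed Kupffer cell markers 252 to 588 CPM, beside a median of 263. Of 5 Kupffer cell markers 0 passed with *Atp6v0d2*, beside 14 of all 12126 genes, so this count does not set the markers apart from other genes. Their r ran from 0.161 to 0.415 with a median of 0.281. The genes most like it were *Nipal1*, a magnesium transporter (r = 0.624, rho = 0.687, q = 0.013), *Hpgd*, the enzyme that inactivates prostaglandins (0.60, rho = 0.608, q = 0.023), *Cul1* (0.579), *Bche* (0.572) and *Zufsp* (0.553).

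Whether a mouse high for an isoform in 1 tissue was high in another was compared across the 47 mice, and the isoforms lay near or below the level of all genes. Between kidney and liver, *Atp6v0d1* had r = 0.442 and rho = 0.410 (permutation p = 0.00189 and 0.00489, q = 0.0164) and *Atp6v1g1* r = 0.396 and rho = 0.440 (permutation p = 0.00582 and 0.00194, q = 0.0387), so 2 of 9 passed, beside 21.5% of all genes. Between kidney and lung 0 of 9 passed, beside 18.7%, although 2 had a permutation p under 0.05, and *Atp6v1g1* was highest at r = 0.318 (permutation p = 0.029, q = 0.134). Between lung and liver *Atp6v1g1* passed with r = 0.414 and rho = 0.354 (permutation p = 0.00319 and 0.0147, q = 0.0414), 1 of 9 beside 13.2%. Without 2 strains these 3 passing values of r were 0.386, 0.479 and 0.309. The median r of the 9 isoforms was 0.153, 0.0898 and 0.0894 in these comparisons, beside 0.157, 0.145 and 0.119 over all genes tested. Restricted isoforms with counts in both tissues gave r of -0.190 for *Atp6v0a4*, 0.148 for *Atp6v0d2* and -0.0162 for *Atp6v1b1* between kidney and lung. Of 30 relations computed, 3 passed, each of a common isoform.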

How the data were processed

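RNA was sequenced from kidney, liver and lung of 47 male CC mice (ribosome-depleted total RNA, RNA integrity of at least 7.0, 50-base single-end reads). The authors aligned reads with STAR 2.5.3a to strain pseudo-genomes (Build37, RefSeq annotation), kept unique alignments and quantified them with RSEM. The deposited expected count of a gene is RSEM's estimate of its reads, and the TPM deposited by the authors adjusts that for transcript length and sequencing depth. The study's models held a sequencing batch that is not among the labels, so batch could not enter the fits and its part in any result was not tested.

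Expected counts were rounded (25 values were not whole). Genes over 1 CPM in at least 30% of libraries (12127) were scaled by TMM (edgeR 4.0.16) and compared by limma-voom, with limma 3.58.1 in R 4.3.3, on tissue and strain. A call needed q ≤ 0.1 after Benjamini-Hochberg adjustment and a difference of 1 or more on the log2 scale. Same-mouse libraries deviated together (median r of 0.166 to 0.211 between tissues, beside about 0 between other mice), so strain was kept as a replicate block. Correlations used log2 CPM (prior count 1), two-sided permutation tests with 100000 permutations and, for q, limma over all genes with the isoform as covariate or, between tissues, the test of Pearson's r. No 2 libraries were identical. The tissue fit was tested on simulated data. Genes named are the 10 isoforms, for each tissue pair the 3 other V-ATPase genes with the largest change, the 5 genes most like each isoform in the tissue of its highest median TPM (restricted isoforms also where that median was at least 1), and listed markers beside a result. Some genes that this rule names are not reported here. *Kap*, *Rogdi* and *Dmxl1* were named after their values were seen. Isoforms and lists were chosen with earlier results of these data known. Python 3.11.15, numpy 2.4.6, pandas 2.3.3 and scipy 1.17.1 were used, with DESeq2 1.42.0 for alternatives. Replicates are single mice of different strains. With strain as a block, p-values of the tissue fits measure how the tissue differences within a mouse spread over mice. Those of correlations measure the spread between mice. Chromatin accessibility was not analysed here.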

Additional observations from a re-analysis of the deposited data

How the results depend on the processing

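Fits without the replicate block gave 6, 6 and 4 isoforms past the threshold for kidney against liver, kidney against lung and lung against liver, as with it, and changed no call of an isoform. In lung against liver the 4 isoforms became 7 with library totals, 7 with log2(TPM + 0.1) and 9 without a fold-change threshold (6 higher and 3 lower). In the other settings of the 3 comparisons the count stayed within 1.5 times. Of the log2 fold changes of single isoforms under alternatives, 229 kept direction and side of the threshold, 18 moved past it, 5 fell short of it and 16 turned. *Atp6v0d1* turned in kidney against liver (0.01 with DESeq2 size factors and with the DESeq2 test, 0.85 with library totals, 0.86 and 0.87 with log2(TPM + 1) and log2(TPM + 0.1)) and in lung against liver (0.50, 0.61 and 0.62 with the last 3). *Atp6v1c1* turned in lung against liver (0.71, 0.80 and 0.82), as did *Atp6v1g1* (0.03 with both DESeq2 settings, then 1.16, 1.27 and 1.28). Library totals and TPM carry no correction for the composition of a library, by construction. The median r of the restricted isoforms across kidneys was 0.849 with library totals and 0.667 with log2(TPM + 1), where each of the 5 had a median r of 0.476 to 0.802 and of 0.227 to 0.579 with all genes tested, beside -0.0148 to 0.0228 with TMM. It moved by less than the spread over pairs with ranks, without 2 strains, without CC020 and after regression on library size. The median r between tissues did so in all 18 settings. Leaving out strains CC015, CC020, CC033, CC035 and CC036 and leaving out CC020 were chosen after seeing the data. Depth limits the restricted isoforms in liver and *Atp6v0a1* and *Atp6v1c2* throughout. Most of these values are a few counts, other than *Atp6v0d2* in liver (median of 16 counts) and *Atp6v1c2* in lung (median of 14).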
